A study of Mus musculus with 6 samples.

Results

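The genes described here are 5 beta-defensins (Defb1, Defb3, Defb4, Defb6 and Defb14) and 3 serum amyloid A genes (Saa1, Saa2 and Saa3), taken by name from the platform's gene symbols, with every probe that carries such a symbol. They are 8 genes, 7 of them among the 19057 genes that a bead array of 45281 probes names. The members were selected on their log2 levels, since the list was drawn up with the knockdown and adenovirus comparisons of these arrays known. Their values in those comparisons are therefore a description, with no p-value. The array reads 7 of the 8 genes, through 9 probes, and none of the probes listed carries the symbol Defb3.

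The arrays measured RNA of full-thickness wounds of dorsal mouse skin on a C57/BL6 background, 8 days after injury, with beta-catenin levels changed before wounding. In the adenovirus experiment both samples, from mice aged 2 months, were homozygous for a floxed exon 3 of the beta-catenin gene, and received an adenovirus with Cre (stabilised, 1 array) or with GFP (GFP control, 1 array). Removal of exon 3 leaves a beta-catenin that resists degradation. In the tamoxifen experiment all 4 samples came from mice homozygous for floxed exons 2 to 6, and all were treated with tamoxifen. The 2 knockdown samples also carried Cre-Esr1, which the labels of the 2 tamoxifen control samples do not give. Replicate 1 of each of these groups was aged 5 months and replicate 2 was aged 2 months. No source used here gives the promoter of the Cre-Esr1 gene or the cells that the adenovirus reached. The labels number the arrays as biological replicates without saying whether an array holds RNA of 1 animal, so p-values measure the spread between these samples. Below, each array is spoken of as 1 wound.

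Beta-defensins are small cationic peptides, secreted mainly by epithelia, that damage microbial membranes, and some of them also attract immune cells. Human studies place their inducible members under cytokine control in keratinocytes, while the homologue of Defb1 is made without a stimulus. Serum amyloid A proteins are acute-phase proteins: Saa1 and Saa2 are made chiefly by the liver after inflammatory signals, whereas mouse Saa3 is made by macrophages, adipocytes and epithelia outside the liver. Interleukin-1, tumour necrosis factor and oncostatin M, acting through NF-kB, C/EBP and STAT factors, are known inducers of serum amyloid genes.

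The promoters of Defb6 and Saa3 are shown because these genes gave the largest differences described below, and that of Defb3 because it is the neighbour of Defb6 for which no probe was listed. RefSeq's table for GRCm38.p6 holds promoters of 5 of the 8 genes, from 250 bases before a transcript start to 50 bases after it. For Saa1 and Saa3 that start lies inside the span RefSeq gives the gene. Capitals mark matches, on either strand, to a C/EBP motif (TTNNGNAA), the octamer motif (ATTTGCAT) and an NF-kB motif (by name only). The Defb6 sequence lies at chr8:19225228-19225527, plus strand, the Defb3 sequence at chr8:19293111-19293410, plus strand, and the Saa3 sequence at chr7:46715627-46715926, minus strand.
Defb6: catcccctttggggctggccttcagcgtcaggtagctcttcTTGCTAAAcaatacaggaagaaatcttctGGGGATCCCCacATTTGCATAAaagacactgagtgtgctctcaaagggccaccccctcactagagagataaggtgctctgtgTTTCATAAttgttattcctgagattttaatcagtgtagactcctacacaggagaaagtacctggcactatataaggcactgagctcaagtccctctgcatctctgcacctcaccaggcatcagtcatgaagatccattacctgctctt
Defb3: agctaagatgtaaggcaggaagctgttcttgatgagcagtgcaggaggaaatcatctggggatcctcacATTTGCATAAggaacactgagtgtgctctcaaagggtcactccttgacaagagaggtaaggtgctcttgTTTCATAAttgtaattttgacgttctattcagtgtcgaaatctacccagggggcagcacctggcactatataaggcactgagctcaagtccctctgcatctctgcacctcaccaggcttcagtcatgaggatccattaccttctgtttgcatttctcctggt
Saa3: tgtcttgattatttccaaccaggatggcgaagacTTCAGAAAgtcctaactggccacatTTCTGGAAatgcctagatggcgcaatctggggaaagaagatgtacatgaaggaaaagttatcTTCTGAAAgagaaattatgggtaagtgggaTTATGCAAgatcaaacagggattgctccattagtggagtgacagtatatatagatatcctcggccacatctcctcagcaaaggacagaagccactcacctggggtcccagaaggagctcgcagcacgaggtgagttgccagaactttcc
The C/EBP letters were present in all 5 member promoters, and in 40.7% of the 32851 promoters in the table. The octamer was present in Defb3 and Defb6 and in 1.74% of all promoters. In both genes its letters overlap a C/EBP match. The NF-kB motif was present in Defb6 alone among the 5, and in 8.46% of all promoters. No member promoter held the letters of a STAT motif (TTCNNNGAA, 8.30% of all promoters), an AP-1 motif (TGANTCA, 7.81%) or a Tcf/Lef motif (ATCAAAG, 3.73%). The promoters of Defb3 and Defb6 were identical at 77.5% of aligned positions, and those of Saa1 and Saa2 at 95.4%. Saa1 and Saa2 are near-identical copies, so a probe of either may read both, and probe sequences were not used here.

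A probe is called detected on an array where its deposited detection p was under 0.01, and levels are the deposited log2 intensities. Between 15217 and 16656 probes passed on an array, and precision is limited by having 6 arrays. The 6 skin genes Krt5, Krt14, Krt1, Krt10, Col1a1 and Col3a1 were detected on all 6 arrays. Xist read 10.12 and 10.42 on the adenovirus arrays and 4.60 to 4.67 on the tamoxifen arrays, so sex and experiment cannot be told apart when levels are compared between the experiments. The beta-catenin gene Ctnnb1 itself read 11.89 ± 0.05 in knockdown and 11.76 ± 0.40 in tamoxifen control wounds (SD, n = 2 each), 11.49 on the GFP control array and 11.40 on the stabilised array. Its probes are not known to lie in the floxed exons, so this does not check the labels.

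Of the 7 genes with a probe, 3 were detected on all 6 arrays (Defb1, Defb14 and Saa3) and Defb6 on 5. Defb4 read between 5.21 and 5.58 and was detected on no array, with a lowest detection p of 0.0321. Saa2 read between 4.80 and 5.62 and was also detected on no array, with a lowest detection p of 0.0278. Saa1 was detected on 1 array: 1 of its 2 probes read 6.63 on tamoxifen control replicate 2, with a detection p of 0.00107, and 4.74 to 5.74 on the 5 others. The other Saa1 probe, at 4.87 to 5.34, was below detection on all 6. Defb1 likewise had a second probe below detection on all 6 arrays, at 4.54 to 4.94, and is described by its brighter probe. The 46 probes of 39 other Defb and Saa genes, Saa4 among them, were each below detection on all 6 arrays. Closest to the threshold was Defb25, with a lowest detection p of 0.0107. The transcripts of the families detected at this threshold were therefore those of Defb1, Defb6, Defb14 and Saa3, with Saa1 on a single array.

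**Figure D1:**
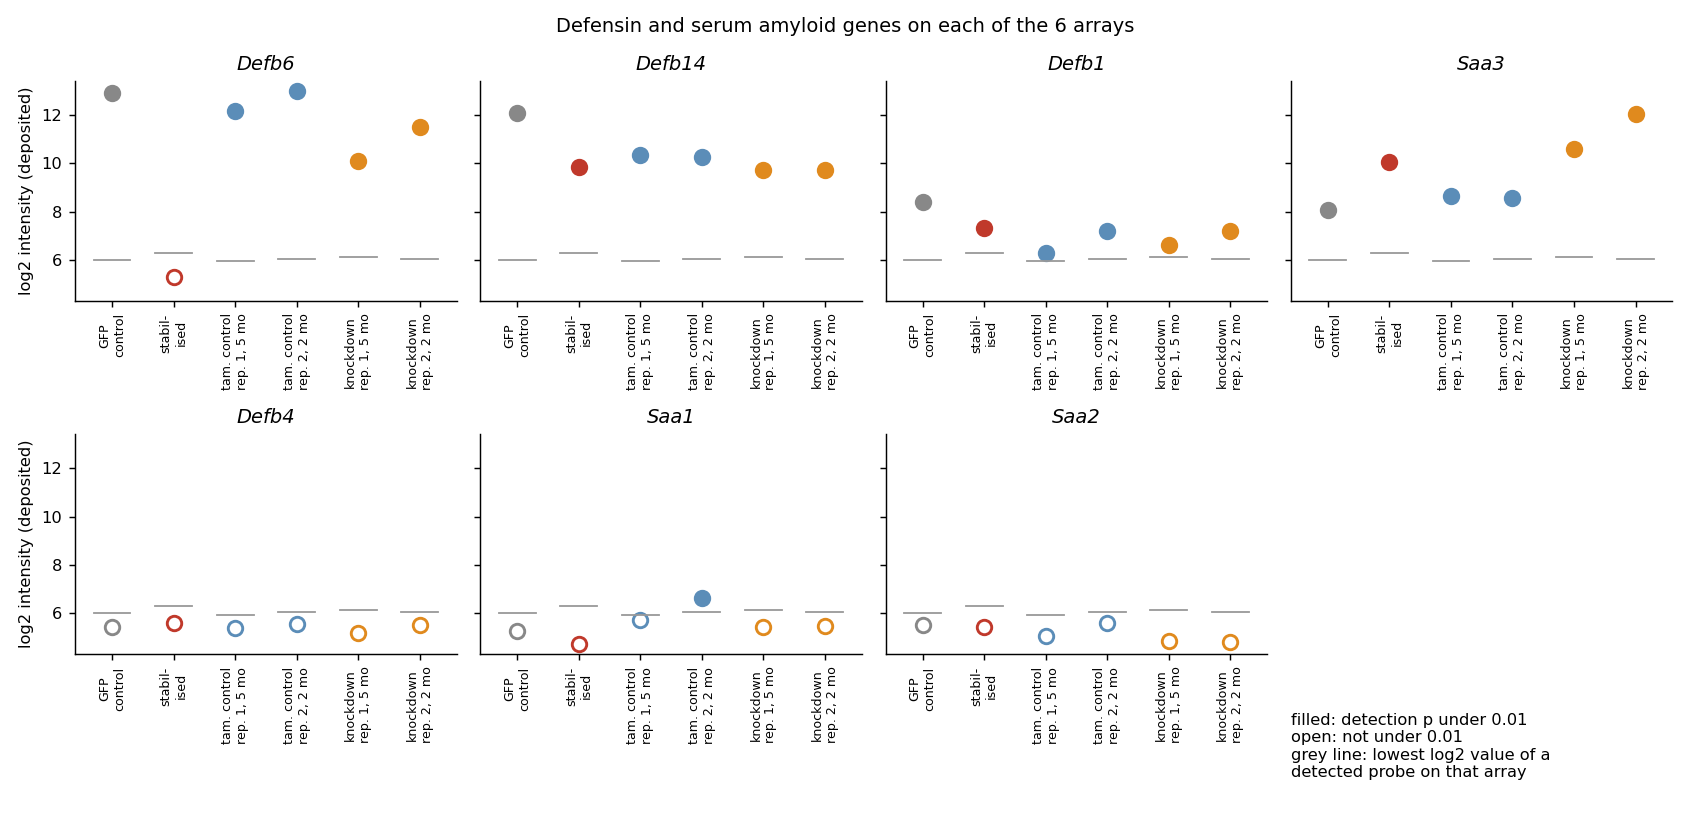
Deposited log2 intensity (vertical axis) of the 7 genes with a probe on each of the 6 arrays (horizontal axis), by the brightest probe; filled points are detected, open points are not, and grey lines give the lowest log2 value of a detected probe on that array. Defb6 is near 12 to 13 on the GFP control and both tamoxifen control arrays and is an open point, at 5.30, on the stabilised array.

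Defb6, a beta-defensin known in the mouse from skeletal muscle as well as from epithelia, gave the widest range of the members. Its log2 level was 12.91 on the GFP control array and 5.30 on the stabilised array, where the detection p was 0.101. The deposited intensities behind these values were 7984 and 151. Because the stabilised array gave no detected signal, the difference is a bound on the background-corrected scale: Defb6 was at least 97.9-fold lower in the stabilised than in the GFP control wound. The size rests on the background correction: the log2 difference was -7.61 with it and -5.64 in quantile-normalized values without it. Among 405 genes with a bound of this kind, detected on the GFP control array alone of the pair, this was the largest such bound, ahead of Myl1 at 58.0-fold, Mup2 at 43.1-fold and Fa2h at 36.4-fold. None of the 9075 genes detected on both arrays was lower by as much as the bound for Defb6. Of the 10 largest bounds, 3 belong to genes of skeletal muscle, named after their values were seen: Myl1, a myosin light chain, Acta1, the skeletal actin, which read 11.30 with GFP and 5.20 in the stabilised wound, and Myh8, a myosin heavy chain, at least 19.4-fold lower. The adenovirus comparison rests on 1 array per group, so there is no replicate check.

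In the tamoxifen experiment Defb6 read 12.16 and 12.99 on control replicates 1 and 2, and 10.11 and 11.50 on knockdown replicates 1 and 2. Both knockdown arrays lay below both controls, with group means of 10.80 ± 0.99 and 12.58 ± 0.58 (SD, n = 2 each). The log2 difference was -1.77 with a standard error of 0.55, or 3.42-fold lower in knockdown. Within the 5-month pair Defb6 was 4.17-fold lower, and within the 2-month pair 2.80-fold lower. Without knockdown replicate 1, the lowest tamoxifen array, the log2 difference was -1.07. Defb6 was thus lower in all 3 wounds with altered beta-catenin than in the controls of the same experiment. The same 3 muscle genes were also lowest, among the tamoxifen arrays, on knockdown replicate 1: Acta1 read 11.34 there, against 13.94 on knockdown replicate 2 and 14.92 and 13.59 on control replicates 1 and 2. Myl1 stood at 12.39, with the other tamoxifen arrays at 14.21 to 15.38, and Myh8 at 10.37, with the others at 12.45 to 13.09. On the 2-month arrays Defb6 was lower in knockdown than in control, whereas Acta1 and Myl1 were higher in knockdown and Myh8 read 12.45 against 12.48. No list of muscle genes was compared, and the part of muscle in the Defb6 result was not tested. In order of Defb6 level, tamoxifen control replicate 2 and GFP control were highest and differed by less than the spread between the tamoxifen controls, and the stabilised wound was lowest.

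Defb14, the mouse counterpart of the human inducible defensin 3, was also lower in both comparisons. It read 12.06 with GFP and 9.84 in the stabilised wound, a 4.68-fold lower level. In the tamoxifen experiment it read 10.34 and 10.25 on the controls and 9.72 on each knockdown array. These are group means of 10.30 ± 0.06 and 9.72 ± 0.00 (SD, n = 2 each) and a log2 difference of -0.58 with a standard error of 0.15, or 1.49-fold lower. The difference was 1.54-fold within the 5-month pair and 1.44-fold within the 2-month pair, so the groups did not overlap although the difference was smaller than that of Defb6. The GFP control array stood 1.77 log2 units above the mean of the tamoxifen controls, while the stabilised array, at 9.84, lay between the knockdown arrays and the tamoxifen controls.

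Defb1, which epithelia make without an inflammatory stimulus, gave no steady difference in knockdown. It read 6.31 and 7.19 on the tamoxifen controls and 6.63 and 7.20 on the knockdown arrays, which overlap. The log2 difference was 0.16 with a standard error of 0.37. Its sign turned when control replicate 1 or knockdown replicate 2 was left out. In the adenovirus pair Defb1 read 8.39 with GFP and 7.35 in the stabilised wound, 2.06-fold lower, or a log2 difference of -0.70 where background was not corrected, which is under 2-fold.

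Saa3 went the other way and was higher in all 3 wounds with altered beta-catenin. It read 8.66 and 8.57 on the tamoxifen controls and 10.61 and 12.06 on knockdown replicates 1 and 2. Both knockdown arrays were above both controls, with means of 11.34 ± 1.02 and 8.62 ± 0.07 (SD, n = 2 each). The log2 difference was 2.72 with a standard error of 0.50, or 6.59-fold higher, rank 6 by size among the 8994 genes detected on all 4 tamoxifen arrays. The knockdown arrays differed from each other by more than the controls did: the difference was 3.86-fold within the 5-month pair and 11.2-fold within the 2-month pair. In the adenovirus pair Saa3 read 8.06 with GFP and 10.05 in the stabilised wound, a 3.97-fold higher level. The 3 control arrays, at 8.06 to 8.66, were thus the 3 lowest of the 6, and the 3 altered wounds, at 10.05 to 12.06, the highest.

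**Figure D2:**
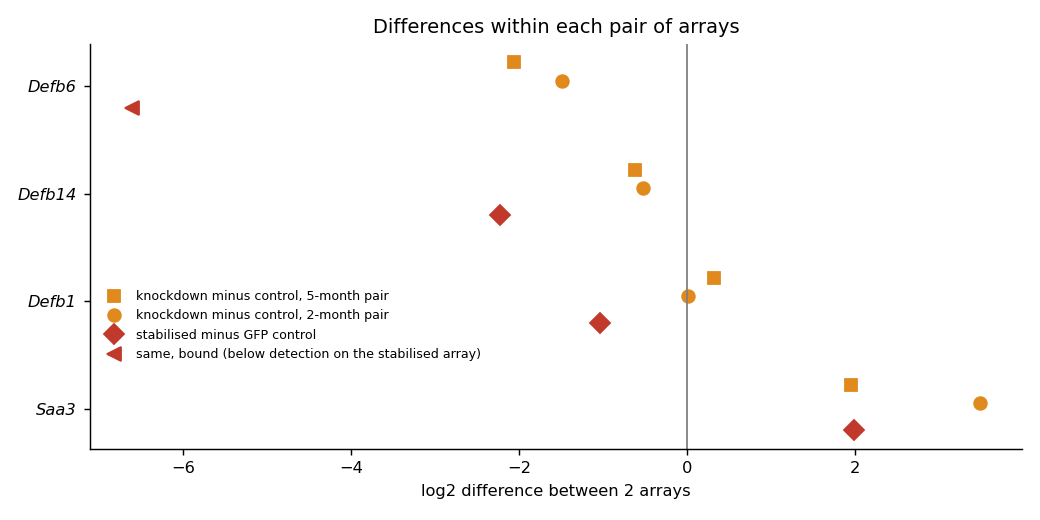
Log2 difference between the 2 arrays of each pair (horizontal axis) for the 4 genes detected in both experiments (vertical axis): knockdown minus control within the 5-month and the 2-month pair, and stabilised minus GFP control. Defb6 and Defb14 lie left of 0 and Saa3 right of 0 in all 3 pairs, while Defb1 has points on both sides; the arrowhead for Defb6, at -6.61, is a bound.

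Set against all genes, the knockdown comparison called nothing. In limma, 0 of 9855 genes (0%) passed an adjusted p of 0.05, and so no member did, while 434 (4.4%) had an unadjusted p under 0.05, or 7.57% with the replicate number as a block. With 2 arrays a group an exact permutation test cannot give a two-sided p below 0.333. Knockdown and control arrays did not overlap for 3 of the 4 tested members, Saa3 upwards and Defb6 and Defb14 downwards. Over all genes 17.1% did so upwards and 16% downwards. Differences of at least 2-fold were seen in Saa3 (0.66% of all genes were at least 2-fold higher) and in Defb6 (2.09% were at least 2-fold lower). In the adenovirus pair 1 of the 4 members was at least 2-fold higher, as were 2.76% of 10002 genes, and 3 were at least 2-fold lower, as were 4.91%. These shares count measured differences, 276 and 491 genes, of which 232 and 330 are left with genes below detection on 1 array set at their bounds. Without background correction they were 98 and 214 genes, and Defb1 was under 2-fold, which leaves 2 members lower. These shares are set beside the members only for scale, since the members were chosen with these comparisons known.

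Age was not used to choose the members and could be tested, with group as a term, on the 4 tamoxifen arrays. Age and replicate number are the same split of these arrays, so their effects cannot be told apart. Defb1 read 6.31 and 6.63 at 5 months against 7.19 and 7.20 at 2 months, and the ages did not overlap. The log2 difference was -0.73 with a standard error of 0.16 (1.66-fold lower, adjusted p = 0.433 in limma), lower at 5 months in both genotypes. It was -0.36 where background was not corrected. Defb6 was also lower at 5 months in each genotype, with log2 differences of -0.82 in control and -1.40 in knockdown wounds, with a log2 difference of -1.11 and a standard error of 0.20 (adjusted p = 0.433 in limma). Saa3 gave -0.67 with a standard error of 0.43 (adjusted p = 0.619 in limma), with control values that differed by 0.10 log2 units and a lower 5-month value in knockdown alone. Defb14 gave 0.04, with a 95% interval of -0.36 to 0.44 (adjusted p = 0.935 in limma). No member passed, and limma gave 0 of all 9855 genes (0%) at the adjusted threshold and 1000 (10.1%) at an unadjusted p under 0.05. Ages did not overlap for 1 of the 4 members, Defb1, where 15.6% of all genes did so downwards and 25.9% upwards. The age fit has 1 residual degree of freedom.

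The genes nearest to Defb6 in pattern were sought by the root mean square difference of log2 values, each centred on its mean over the 6 arrays, among 10285 other genes. Fa2h, which hydroxylates fatty acids for the lipids of sebum and the skin barrier, was the nearest at 0.55. It read 11.49 on the GFP control array, 5.35 on the stabilised one, 11.39 and 11.71 on the tamoxifen controls, and 8.54 and 10.88 on knockdown replicates 1 and 2. Serpinb6e, a serine protease inhibitor gene, followed at 0.91 and the aldehyde dehydrogenase gene Aldh3a1 at 0.95. Like Defb6, all 3 were below detection on the stabilised array alone. For Saa3 the nearest genes were the neutrophil chemokine gene Cxcl1 at 0.61, the myeloid lectin gene Clec4d at 0.63 and Nfkbid, an inhibitor of NF-kB, at 0.65. All 3 were highest on knockdown replicate 2, as Saa3 was, with Cxcl1 at 11.10 there and 6.51 to 8.14 on the 5 others. On knockdown replicate 1, where Saa3 was the second highest, Cxcl1 read 7.84 and Nfkbid 7.78, both below their values on the stabilised array. Clec4d read 10.90 on knockdown replicate 1, 10.84 on tamoxifen control replicate 1, of the same age, and 10.86 on the stabilised array.

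**Figure D3:**
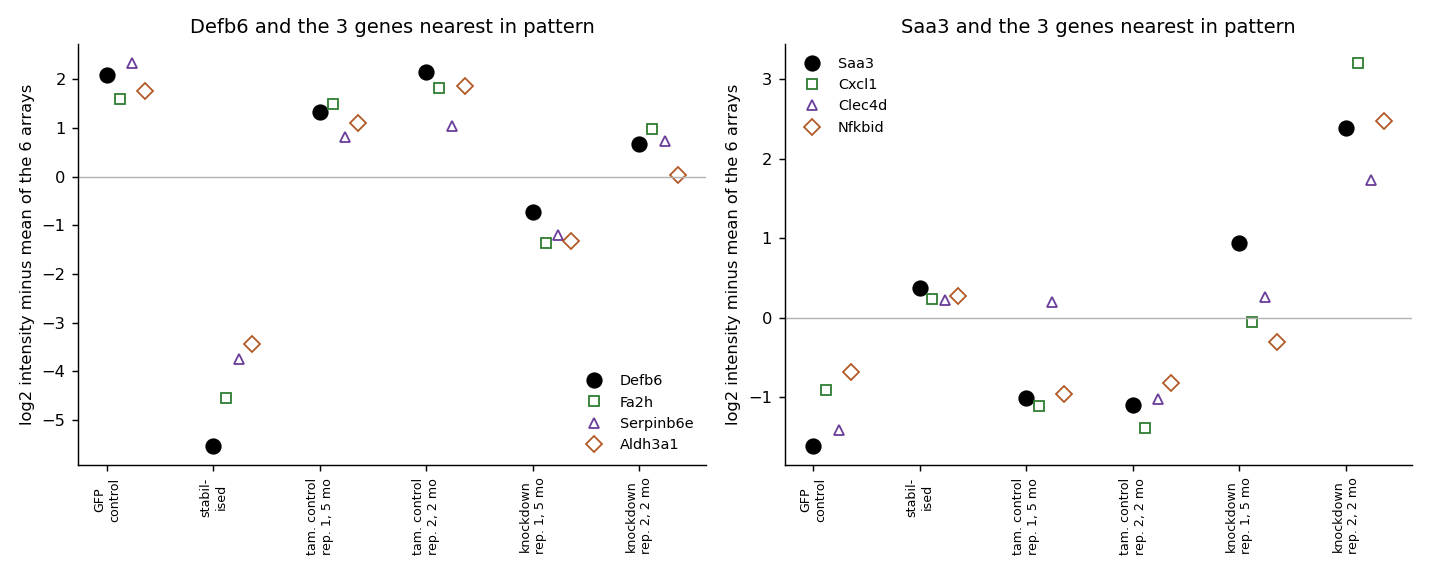
Log2 intensity minus the mean of the 6 arrays (vertical axis) on each array (horizontal axis) for Defb6 and Saa3 (black) and the 3 genes nearest to each in pattern (open symbols). Defb6 and its nearest genes are lowest on the stabilised array, and Saa3 and its nearest genes are highest on knockdown replicate 2.

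Of 14 hair follicle and sebaceous gland markers, 9 were detected on at least 1 array. Their summed linear level was 11464 on the GFP control array, 1130 on the stabilised one, 8597 and 10652 on tamoxifen control replicates 1 and 2, and 2531 and 6004 on knockdown replicates 1 and 2. The stabilised array, knockdown replicate 1 and knockdown replicate 2 also held the lowest values of Defb6, in the same order. The sum was carried by Scd1, a lipid desaturase of sebaceous glands, and Fa2h, with 9708 of it on the GFP control array and 8154 on tamoxifen control replicate 1. The other 7 genes summed to 1756 on the GFP control array, 346 on the stabilised one, 443 and 585 on the tamoxifen controls, and 239 and 414 on knockdown replicates 1 and 2. For these 7 the same 3 arrays were lowest, but in another order, with knockdown replicate 1 below the stabilised array. The hair keratins Krt27, Krt71 and Krt28 were detected on the GFP control array alone, and so were below detection on the tamoxifen controls, where Defb6 read 12.16 and 12.99. Krt25, Krt31, Scd3 and Awat1 were below detection on all 6 arrays. On the stabilised array 5 of the 9 were at least 2-fold lower with genes below detection at their bounds, with Fa2h at least 36.4-fold and Krt71 at least 6.74-fold lower, while the nail keratin Krt84 was higher by 0.90 log2 units. The list's adenovirus median was -2.10 at the bounds. In knockdown all 5 tested were lower, with a median log2 difference of -1.15 against 0.01 over all genes. None passed the threshold, and 3 were lower without overlap, as were 16% of all genes. The median was -0.67 when knockdown replicate 1 was left out. Fa2h differed by -1.84, Scd1 by -1.18 and Elovl3, detected on 1 of 2 knockdown arrays, by -1.07, while Krt84 was at least 1.56-fold lower. The part of these glands and follicles in the Defb6 result was not tested, and in RNA of whole wounds fewer cells of a type and less RNA per cell cannot be told apart.

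Epidermal markers gave a second set of values to read beside the defensins. All 13 basal and wound-edge keratinocyte markers tested were lower in knockdown without overlap, as were 16% of all genes, although none passed the threshold. Their median of -1.18 became -0.76 when knockdown replicate 1 was left out. Krt6b differed by -1.83, Krt17 by -1.64, Krt15 by -1.57 and Krt16 by -1.37. Their summed level was 181035 and 219090 on the controls and 93705 and 136824 on knockdown replicates 1 and 2. On the stabilised array the sum was 231749 against 234969 on the GFP control, with a median difference of -0.04, so the list as a whole was close to the control where Defb6 and Defb14 were far below it. Krt15 (-3.93) and Dst (-1.31) were the exceptions past 2-fold. The sums lean on bright genes such as Krt14, at 15.97 and 15.98 on these 2 arrays. That is close to the top of their range, where a change may not show. Of 16 tested upper epidermis markers, 10 were lower and 6 higher in knockdown, with a median of -0.07 (-0.40 to 0.12 as each array was left out) and no call. Krt2, detected on 1 of 2 knockdown arrays, differed by -4.48, Krt77 by -1.81, Tgm3 by -0.47 and Krt1 by -0.41. On the stabilised array Krt77 was at least 31.8-fold lower, and Flg2 differed by -2.29. The part of epidermal content in the defensin differences was not tested.

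Of 15 neutrophil markers, 9 were detected on at least 1 array. All 9 were higher on knockdown replicate 2 than on the control of the same age, and 6 were higher on knockdown replicate 1 than on its control, as Saa3 was in both pairs. Of the 6 higher on knockdown replicate 1, Cxcr2 and Ltf were below detection on both arrays of that pair. Clec4d, also among them, read 10.90 against 10.84 on the control. On the stabilised array 6 of the 9 were higher than on the GFP control, with a median difference of 0.27. The summed level gave another order, because S100a8 and S100a9, which keratinocytes also make, carry most of it: it was 51960 and 26467 on the GFP control and stabilised arrays, 17989 and 30552 on the tamoxifen controls, and 9566 and 73877 on knockdown replicates 1 and 2. The other 7 markers summed to 2265 and 5479 on the GFP control and stabilised arrays, 2991 and 1634 on the tamoxifen controls, and 3511 and 8298 on knockdown replicates 1 and 2. Without S100a8 and S100a9 each wound with altered beta-catenin had a higher sum than its control, whereas with them only knockdown replicate 2 did. The smaller sum leans on Clec4d and Mmp9, the brightest of these 7 markers on every array. Clec4d was also among the genes nearest to Saa3 in pattern. Mmp9 read 9.39 on knockdown replicate 1 against 9.59 on its control. The granule genes Camp, Ngp, Mmp8 and Elane were below detection on all 6 arrays. The list's median in knockdown was 0.90 (0.29 when knockdown replicate 2 was left out, 1.77 when replicate 1 was), with Retnlg at 3.29, Clec4d at 1.41, Csf3r at 0.98 and Mpo at 0.93. Retnlg and Mpo were detected on 1 of 2 controls. Between the adenovirus arrays Clec4d differed by 1.64 and Mmp9 by 1.49. The sum of 13 macrophage markers was 32541 on the GFP control, where Saa3 was lowest, 50590 on the stabilised array, and 56136 to 80135 on the tamoxifen arrays, with 73610 and 56136 on the controls. Macrophage genes had a median of 0.12 in knockdown (-0.02 to 0.28 as each array was left out) and of 0.78 in the adenovirus pair. Cd163 gave -0.45 and 2.00 in these comparisons, while Itgam, detected on 1 of 2 controls, gave 0.42 in knockdown and was at least 2.44-fold higher on the stabilised array. Fcgr3 and Mpeg1 gave 0.35 and 0.34 in knockdown. The part of neutrophils and macrophages in the Saa3 result was not tested.

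Liver and adipocytes are known sources of serum amyloid. Of 9 liver genes, 8, with Alb, Apoa1 and Apoa2 among them, were below detection on all 6 arrays, and Ttr was detected on the GFP control array alone, where it read 6.31. Saa1 and Saa2, the liver forms, were at or near background as given above. Adipocyte markers summed to 1059 for the GFP control array and 685 for the stabilised one, to 1127 and 842 on the tamoxifen controls, and to 786 and 969 on knockdown replicates 1 and 2. Pparg was detected on 6 arrays, Lep on 5, and Adipoq and Adig on 4, while Plin1, Cidec, Fabp4 and Retn were below detection on all 6. In knockdown Adig, detected on 1 of 2 knockdown arrays, differed by -1.01, Adipoq, detected on 1 of 2 controls, by -0.23, Lep by -0.17 and Pparg by 0.04, and on the stabilised array Adig was at least 3.13-fold and Adipoq at least 1.56-fold lower. The part of adipocytes in the Saa3 result was not tested.

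Of 15 cytokines known to induce these genes, 7 could be tested and 8 were below detection on all 6 arrays: Il6, Il17a, Il17f, Il17c, Il22, Lif, Ifng and Il1f9. None passed the threshold in knockdown, 3 were higher without overlap and 0 lower, against 17.1% and 16% of all genes. Il1b, which encodes interleukin-1 beta, read 8.24 and 7.77 on the controls, 8.67 on knockdown replicate 1 and 13.70 on knockdown replicate 2, a log2 difference of 3.18. Osm differed by 2.51 and Tnf by 2.22. On knockdown replicate 2 these 2 genes read 11.31 and 10.47, while Tnf was at 6.21 on knockdown replicate 1. Il1a differed by 0.38. The list's median was 0.38, which became 0.03 when knockdown replicate 2 was left out, 1.17 when replicate 1 was, and 0.15 and 0.64 when control replicates 1 and 2 were. On knockdown replicate 1 Saa3 stood 1.95 log2 units above the control of the same age, and Il1b stood at 8.67 against 8.24. In that pair Osm, Tnf, Il1f6 and Il1f8 were also higher in knockdown, and Il1a and Il18 were lower. On the stabilised against the GFP array Osm differed by 1.52, Il1b by 0.78, Tnf by 0.35 and Il1a by -1.41. Il1f6, Il1f8 and Il18 also read lower on the stabilised array, and the list's median was -0.27, or -0.15 at bounds. Il1b read 11.08 on the GFP control array, where Saa3 was lowest at 8.06, and 11.86 on the stabilised array. On knockdown replicate 1 Il1b read 8.67 and Saa3 10.61. Osm, at 8.23 on the GFP control array, was also lower on knockdown replicate 1. The part of these cytokines in the Saa3 result was not tested.

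The receptors of these cytokines had a median of -0.09 in knockdown (-0.09 to 0.01 as each array was left out) over 11 tested of 13, with Tnfrsf1b at 0.82, Il17rc at -0.33, Il17ra at -0.22 and Tnfrsf1a at 0.20, and none passed. For the stabilised wound Tnfrsf1b differed by 1.01, and Il22ra1 was detected on the stabilised array alone, at least 1.26-fold higher. Among 14 transcription factors and feedback genes downstream, 10 were higher in knockdown and none passed. Of these, 4 were higher without overlap, as were 17.1% of all genes. Fos differed by 1.20, the STAT feedback inhibitor Socs3 by 0.75, Junb by 0.65 and Jun by 0.48, with a median of 0.19 (0.10 and 0.40 when knockdown replicates 2 and 1 were left out). Their adenovirus median was 0.01, with Nfkbia at -0.59 and Junb at 0.55.

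Other antimicrobial genes of skin went both ways in knockdown. Of 12 tested of 23, 7 were higher and 5 lower in knockdown, and none passed. Slpi, a secreted protease inhibitor, differed by 1.58, Chil1 by -1.21, Wfdc12 by -1.19 and S100a7a, detected on 1 of 2 controls, by 0.75. Slpi read 13.53 on knockdown replicate 2, and the 5 other arrays lay at 9.22 to 10.57. The median was 0.22, but -0.64 when knockdown replicate 2 was left out, 0.43 when replicate 1 was, and -0.02 and 0.10 when control replicates 1 and 2 were. Of 13 compared in the adenovirus pair, with genes below detection at their bounds, 1 was at least 2-fold higher, Wfdc12 at 1.08. At least 2-fold lower were 5: Chil1 at -2.29, S100a9 at -1.40, S100a7a at -1.38, S100a8 at -1.19 and Lcn2. Lcn2, which binds bacterial siderophores, was at least 2.71-fold lower. Over all 10002 genes 232 were at least 2-fold higher and 330 lower on the same count. Of 10 tested acute-phase genes other than the members, 3 were higher and 2 lower in knockdown without overlap, against 17.1% and 16% of all genes. Their median of 0.27 became -0.01 when knockdown replicate 2 was left out, and none passed. The haptoglobin gene Hp differed by 1.26, Orm1 by -0.81, Il1rn by 0.61 and Cp by 0.53. Stabilised against GFP, Orm1 differed by -3.05 and Lbp by 1.35, and the list's median was 0.00.

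Receptors reported for defensins or serum amyloid A were detected for the most part. Of 18, 11 were tested in knockdown, with 9 higher, 2 lower, a median of 0.17 (0.06 to 0.34 as each array was left out) and none past the threshold. Cd14, a co-receptor of Tlr4, differed by 1.69 and Fpr2, a chemotactic receptor that binds serum amyloid A, by 1.17. Both were highest on knockdown replicate 2, Cd14 at 13.32 and Fpr2 at 11.35. P2rx7 differed by 0.33 and Scarb1 by -0.34. Ccr6, a chemokine receptor that beta-defensins engage, was detected on 2 of the 6 arrays. On the adenovirus arrays Cd14 differed by 0.90, and Mc5r was detected on the GFP control array and not on the stabilised array, with no fold given because the bound was under 1.

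**Figure D4:**
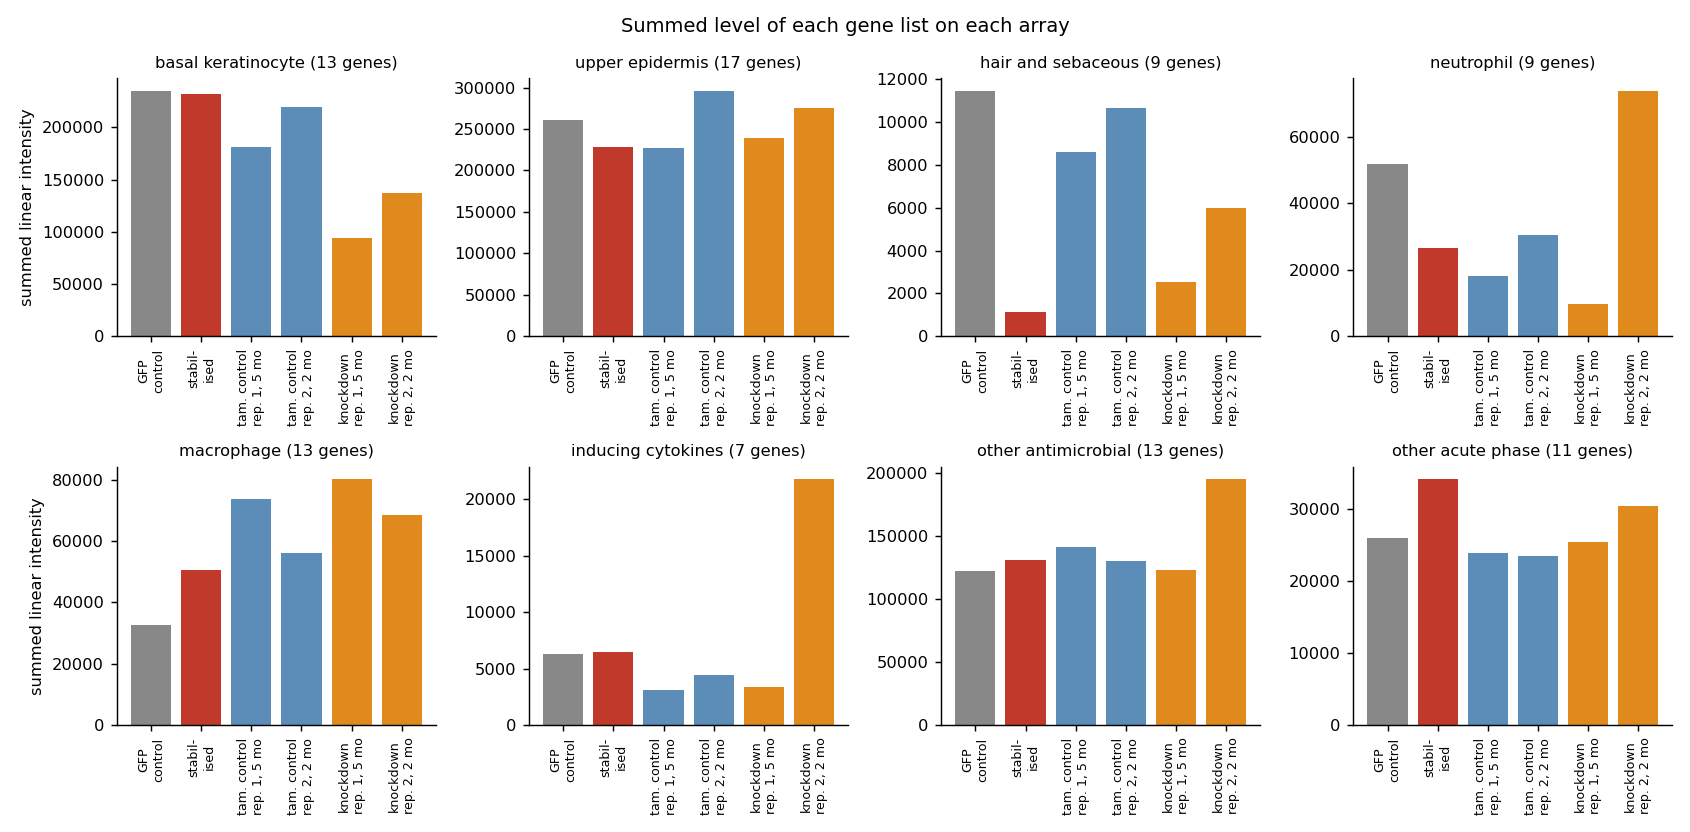
Summed linear level (2 to the power of the deposited log2 intensity, vertical axes from 0) of the detected genes of 8 lists on each array (horizontal axis). The hair and sebaceous sum is 1130 on the stabilised array and 11464 on the GFP control, and the neutrophil sum, mostly S100a8 and S100a9, is 9566 on knockdown replicate 1 and 73877 on knockdown replicate 2.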

How the data were processed

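Per the labels, biotin-labelled RNA of 6 wound samples was read on Illumina bead arrays. Each probe has, per the file headers of the deposited non-normalized table, its mean bead intensity and detection p-value on every array. The log2 values of the deposited series table share their quantiles between arrays and lie within 0.0874 of limma's neqc (offset 16) run on the intensities. R 2.14 is named in the submitters' processing notes, and no source used here gives the normalization method. The 2 lines of stray text were dropped.

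Probe symbols came from the platform annotation (18 probes had several symbols and 10378 none) and were checked by gene ID against RefSeq, which changed 0. The deposited log2 values were used, with neqc as an alternative. Genes detected (p under 0.01) on 2 or more of the 4 tamoxifen arrays were fitted with limma 3.58.1 in R 4.3.3 (two-sided, default eBayes, Benjamini-Hochberg over all 9855 genes, adjusted p under 0.05), the brightest probe standing for its gene. Knockdown was fitted with 1 mean per group, and age with group as a term. The adenovirus pair, with 1 array per group, had no test, and genes detected on at least 1 of its 2 arrays were compared. Bounds set a gene below detection at the higher of its own value and the lowest detected level on that array (5.95 to 6.30 log2). Named genes are the members, the 3 genes nearest each member in pattern, and in each list the 4 largest knockdown and the 2 largest adenovirus differences, with a few others chosen after their values were seen. The members and lists were chosen with earlier results of these data known. The limma steps were tested on simulated data.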

Additional observations from a re-analysis of the deposited data

How the results depend on the processing

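In knockdown, Defb6 ran from -2.47 to -1.07 and Saa3 from 2.00 to 3.44 over 12 alternatives, Defb14 from -0.62 to -0.49, and Defb1 from -0.28 to 0.60. Only Defb1 changed sign, at -0.28 without control replicate 1 and -0.12 without knockdown replicate 2. The number of genes past the threshold was 0 in every alternative except without knockdown replicate 1, so its range on leaving out 1 array at a time was 0 to 7. In that fit the lone knockdown array is assumed to vary like the controls. No member was among the 7. In the age comparison 1 gene passed with a trended, robust variance and 0 otherwise. Genes at least 2-fold higher on the stabilised array numbered 276, or 98 with quantile normalization and no background correction and 103 with scaling to the 75th percentile. Those at least 2-fold lower numbered 491, 214 and 209. In these 2 alternatives Defb6 differed by -5.64 and -5.51 in place of -7.61, and Defb14 by -2.07 in both in place of -2.23. With a replicate block in the knockdown fit, 0 genes passed, no member passed, and 746 genes had an unadjusted p under 0.05 in place of 434. Replicate number equals age in the labels, and the deviations of same-numbered arrays from their group means correlated at 0.13 over genes. List medians without single arrays were added after the data had been seen.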

Other observations

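Most of the genes nearest in pattern to Defb1 and Defb14 were detected on a single array. For Defb1 the nearest were AA467197 at a root mean square difference of 0.14, the WAP-domain gene Wfdc2 at 0.17 and Jakmip2 at 0.18. AA467197 was detected on all 6 arrays and read 11.09 on the GFP control, 9.92 on the stabilised array, 9.04 and 9.68 on the tamoxifen controls, and 9.17 and 10.10 on knockdown replicates 1 and 2. For Defb14 the nearest were Arhgap8 (0.17), S100a3, a calcium-binding protein gene of the hair cuticle (0.17), and Fam3b (0.18), each detected on the GFP control array alone.

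S100a8 and S100a9, which encode the subunits of calprotectin, were lower at 5 months than at 2 months in each genotype. They were chosen after their values were seen. S100a9 read 10.28 and 11.06 at 5 months and 12.76 and 14.52 at 2 months, a log2 difference of -2.97. S100a8 read 12.23 and 13.65 at 5 months and 14.43 and 15.36 at 2 months, a difference of -1.95. For comparison, Defb6 differed by -1.11 between the ages, and no gene passed the threshold in limma.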
